A study of Mus musculus with 33 samples.

Results

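RNA-seq counts of EBs treated with RA (EBs + RA) were compared between an Apex1-mutant mESC clone and control clones. EBs are embryoid bodies, aggregates of mESCs (mouse embryonic stem cells) that differentiate in suspension, and RA is retinoic acid. The libraries were chosen by their labels, and the comparison used 5 of the 33 libraries of the series. They were the technical duplicates of Apex1 clone #46 and 1 library each of control clones #1, #4 and #7. E14TG2a, an established mESC line, was the parent of all clones. They had received the Cas9 plasmid pX330, with guide RNAs against Apex1 for clone #46 and without a guide for the controls, and had passed puromycin selection. The EBs of every clone received 5 µM RA from day 4 and were harvested on day 8. The mutant genotype was thus represented by a single clone, and the labels do not say whether its duplicates came from separate cultures. The p-values below therefore concern the difference of this clone from the control clones, not the genotype.

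APEX1 is the main AP-endonuclease of mammalian cells and cuts DNA at the abasic sites that DNA glycosylases leave behind in base excision repair (BER). RA binds nuclear RA receptors. In EBs it favours neural fates over mesoderm and endoderm, and it switches on Hox genes, which mark position along the head-to-tail axis. During this differentiation the transcription factors that keep mESCs pluripotent are normally shut off, neural progenitors and neurons form, and cells at the border of the neural plate can enter the neural crest.

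Apex1 (ENSMUSG00000035960) lies on the plus strand of chromosome 14 of the mouse genome NCBIM37, from 51544643 to 51546814. The guides that made the clone are shown because they fix which part of the gene was to be removed. They are written 5′ to 3′ with the PAM, the motif that Cas9 needs beside its target, in capitals.
Apex1 guide 1: tgcccgctaaaagtctcttaTGG
Apex1 guide 2: aagatccggtccaaggctctTGG
On chromosome 14 of NCBIM37, the only chromosome searched, each protospacer occurred once beside a PAM. Guide 1 lay at chr14:51546001-51546020 and guide 2 at chr14:51546586-51546605, both on the plus strand and within coding exons. Sites on other chromosomes were not looked for. A deletion between the expected cut sites would run from 51546018 to 51546602, which is 585 bases, and would remove 483 of the 951 coding bases and 483 of the 1422 exon bases (34%). The Apex1 gene had 13.4, 14.7 and 15.3 CPM in control clones #1, #4 and #7, and 69.4 and 60.4 CPM in the duplicates of the Apex1 clone. CPM is a gene's count per 1000000 counts of its library, after TMM normalization. The libraries labelled as Apex1 knockout thus held more counts on Apex1 than any control, with a log2 fold change of 2.17 (SE 0.18, FDR 0.0121 by the quasi-likelihood test of edgeR, Benjamini-Hochberg adjusted). The count is no check of the deletion, for which the study used genotyping PCR, along with a western blot for APEX1. Of the exon bases of Apex1, 877 are also exon bases of Tmem55b on the opposite strand, 545 belong to Apex1 alone, and 0 of these 545 lie inside the planned deletion. The library kit does not mark the strand, and the strand setting of the read counting is not given in the sources used here. If strand was not used, reads in the shared bases count for neither gene.

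The libraries held 29045090, 25510159 and 28121162 counts on genes in control clones #1, #4 and #7 and 21523742 and 26342496 in the Apex1 duplicates. The duplicates differed by more than counting noise, with a chi-square per degree of freedom of 27.65, against 33.69 to 70.47 between control clones. Their log2 CPM values correlated with r = 0.985 over 11347 genes. Control clone #7 stood apart from the other controls, with r = 0.968 and 0.959 to clones #1 and #4, which correlated with 0.989. Clone #7 was also the control closest to the Apex1 libraries (r = 0.928 and 0.945, against 0.901 to 0.916 for clones #1 and #4). These values are across genes, which are not independent replicates. Counts of calls below are therefore given with and without control clones.

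The transcriptome of the Apex1 clone differed widely from the controls after RA. DE (differentially expressed) genes were those with an FDR under 0.1 whose log2 fold change exceeded 0.5 in size. The duplicates were summed into 1 library and tested against the 3 control clones, so that the spread came from the controls alone. Of 16792 tested genes 1400 were DE (8.34%), 893 of them higher (5.32%) and 507 lower (3.02%) in the Apex1 clone. In all 1400 both duplicates lay beyond all 3 controls, as they did for 25.6% (above) and 26.7% (below) of all tested genes. The median log2 fold change over all tested genes was -0.02. Without control clone #7 the fit called 5435 genes (32.6%, with 18.4% higher and 14.1% lower). It called 679 without clone #1 (4.08%, with 2.62% and 1.47%) and 449 without clone #4 (2.69%, with 1.7% and 0.989%). The fit without clone #7 called 889 of the 893 rises and 507 of the 507 falls again. Of DE genes whose mean log2 CPM reached 2, clone #7 lay on the mutant side of the mean of the other controls for 75.7% of 568 rises and 79.2% of 400 falls. With the duplicates kept as separate libraries 4026 genes were called (24.8%, with 13.9% higher and 10.9% lower). DESeq2 called 1972, with a more even split of 1020 higher and 952 lower. Among genes named below, those of Pax6, Pax3, Tcfap2b, Lefty1, Pou3f3, Zic1, Wnt1, Dbx1, Acta2, Lgr5, Robo3, Unc5a and Miat were no longer called when the filter on low counts was left out, with log2 fold changes that differed by at most 0.02 from those given.

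The 8 largest rises among well-expressed genes were those of Hoxa9 (4.95), Lefty1 (4.76), Gm7325 (4.55), Lefty2 (4.05), Trh (3.88), Scand1 (3.84), Laptm5 (3.78) and Esrrb (3.66), given as log2 fold changes. Trh, which encodes the precursor of thyrotropin-releasing hormone, had 3.61, 3.44 and 4.35 CPM in the controls and 68.0 and 45.3 CPM in the Apex1 duplicates (SE 0.22, FDR 0.0114). Scand1, a SCAN domain gene, had 59.4 CPM in duplicate 1 but 9.46 CPM in duplicate 2, against 1.72 to 3.08 CPM in the controls. The duplicates differed widely from each other for Scand1. The 8 largest falls were those of Prl7d1 (-6.70), Miat (-5.08), Dbx1 (-5.06), Hes5 (-5.03), Wnt1 (-4.68), Neurog1 (-4.38), Hk3 (-4.36) and Tpbpa (-4.34). Miat, a long noncoding RNA of the nervous system, had 77.4, 103 and 40.8 CPM in the controls and 1.90 and 2.36 CPM in the Apex1 duplicates (SE 0.64, FDR 0.0231). Hk3, a hexokinase gene, had 4.10 to 13.4 CPM in the controls and 0.370 and 0.554 CPM in the duplicates. Both duplicates lay beyond all controls for these rises and falls by the rule that chose them. Lefty1 was not DE without clone #7 (FDR 0.202), and Dbx1 was not DE without clone #1.

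**Figure D1:**
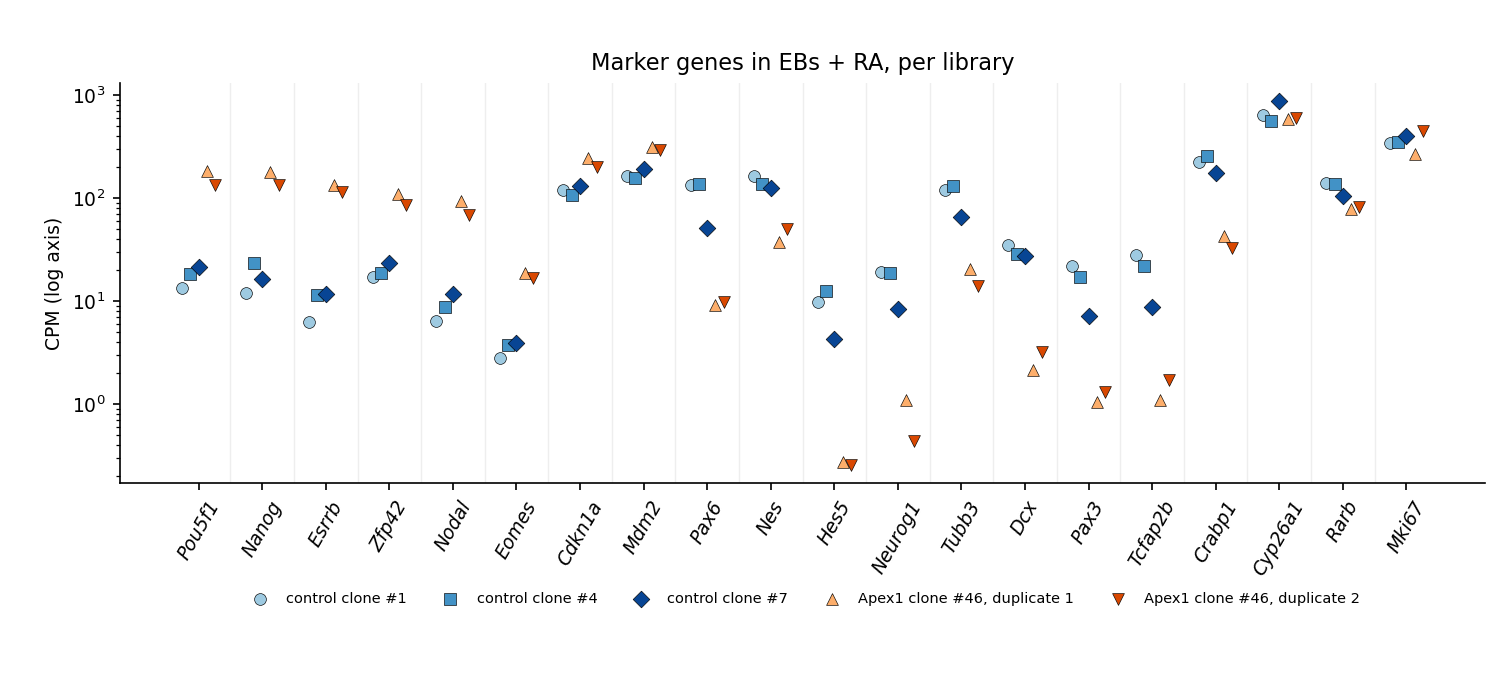
CPM on a log axis of 20 marker genes in EBs + RA, with 1 symbol per library: control clones #1, #4 and #7 in blue and the Apex1 duplicates in orange. The pluripotency genes on the left lie higher in the Apex1 clone (Pou5f1 135 and 183 CPM against 13.3 to 21.4), the neural and neural crest genes lie lower (Pax6 9.20 and 9.94 CPM against 51.0 to 136), and Cyp26a1 and Mki67 overlap between the groups.

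Most genes of the pluripotency network rose. Of its 25 listed genes 23 passed the filter on low counts, and 18 of these rose, while 5 did not pass the test (19 rose without control clone #7, 16 without #1, 14 without #4). The list had a median log2 fold change of 2.16, against -0.02 over all genes. Pou5f1, the transcription factor OCT4 that sustains pluripotency, had 13.3, 18.2 and 21.4 CPM in the controls and 183 and 135 CPM in the Apex1 duplicates. That is 8.92-fold higher (log2 fold change 3.16, SE 0.24, FDR 0.0121). Nanog, another core factor of the network, had 12.0, 23.6 and 16.4 CPM in the controls against 180 and 133 CPM (log2 fold change 3.17, SE 0.31, FDR 0.0146). In the fit without clone #7 its FDR was 0.169. Esrrb, an orphan nuclear receptor of naive mESCs, had 6.31, 11.5 and 11.7 CPM in the controls and 135 and 114 CPM in the duplicates (3.66, SE 0.31, FDR 0.0121). Zfp42, the naive marker REX1, rose by 2.31 (SE 0.20), and Dppa5a, an RNA-binding protein of mESCs, rose from 88.1 to 142 CPM in the controls to 1620 and 1120 CPM. Summed over the matched members of the list, the controls held 607, 692 and 819 CPM and the Apex1 duplicates 3640 and 2910 CPM. The groups did not overlap for any gene named here, and clone #1 was the lowest control for Pou5f1, Nanog, Esrrb, Zfp42 and Dppa5a. In bulk RNA, more cells of a kind and more RNA per cell cannot be told apart.

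Genes of the formative and primed epiblast, the state that follows naive pluripotency, did not move together. Of 12 tested members 4 rose and 1 fell (4 rose and 4 fell without clone #7), and the median was -0.01. The rises included those of Lefty1, Lefty2 and Nodal. Nodal is the ligand that sustains the epiblast and starts the primitive streak, and LEFTY1 and LEFTY2 are its secreted inhibitors and are induced by it. Nodal had 6.48, 8.88 and 11.7 CPM in the controls and 94.6 and 68.4 CPM in the Apex1 duplicates (3.16, SE 0.29, FDR 0.0132). Lefty2 had 3.96, 7.12 and 5.87 CPM against 109 and 79.6 CPM (4.05, SE 0.29, FDR 0.0121). All libraries of the clone lay above the controls for these genes. Cdh2, the N-cadherin gene, was the fall (-1.47) and is named because its value was seen. The defining markers of the primed epiblast were not DE: Fgf5 had 1.98 to 2.88 CPM in the controls and 2.77 and 1.63 CPM in the duplicates, and Dnmt3b, a DNA methyltransferase, had 41.6 to 43.2 CPM and 44.8 and 53.8 CPM.

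Germline and meiosis genes, several of which mESCs also express, contained 7 rises among 25 tested members (20 rises and 1 fall without clone #7, 4 rises without #1, 2 without #4), with a median of 1.00. Dppa3, a maternal and germ cell factor, had 3.22, 7.84 and 4.63 CPM in the controls and 32.4 and 28.6 CPM in the duplicates (2.55, SE 0.43, FDR 0.0364). Without clone #7 it had an FDR of 0.138. Prdm1, the repressor BLIMP1 that specifies germ cells, rose by 1.97 (SE 0.31, FDR 0.0324), and Dazl, an RNA-binding protein of germ cells, by 1.20 (SE 0.25, FDR 0.0568). The calls of Dazl, Ddx4 and Piwil2 were lost without clone #4, and those of Ddx4 and Piwil2 also without clone #1. Pluripotency genes moved with this list, and their part in it was not tested.

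Many neural genes fell, from those of the progenitor to those of the neuron. Of 22 tested neural progenitor genes 11 fell and none passed the test upwards (18 fell without clone #7, 6 without #1, 5 without #4), with a median of -1.42. Pax6, a homeobox factor of neural progenitors, had 135, 136 and 51.0 CPM in the controls and 9.20 and 9.94 CPM in the Apex1 duplicates. Clone #7 was the control nearest to the clone, and the fitted difference was 11.1-fold (log2 fold change -3.47, SE 0.64, FDR 0.0438). Nes, which encodes nestin, an intermediate filament of neural stem cells, had 166, 137 and 126 CPM against 37.8 and 49.7 CPM (-1.68, SE 0.22, FDR 0.0236). Hes5, a Notch target that keeps progenitors from differentiating, had 9.78, 12.7 and 4.35 CPM against 0.277 and 0.259 CPM (-5.03, SE 0.83, FDR 0.0348). Zic1 and Pou3f3, further progenitor factors, fell as well (-2.99 and -3.18 on the log2 scale). Their calls were lost without clone #1 or #4, and that of Pax6 without clone #1. The summed level of the progenitor list was 1600, 1640 and 922 CPM in clones #1, #4 and #7 and 631 and 579 CPM in the duplicates.

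Proneural factors, which commit progenitors to become neurons, had the lowest median of all lists (-2.38). With genes of the Notch pathway they numbered 29 tested members, of which 12 fell and 1, the Notch ligand Jag2 (1.48, named because its value was seen), rose. Without clone #7 this was 21 falls and 2 rises. Neurog1 had 19.4, 18.7 and 8.49 CPM in the controls and 1.11 and 0.443 CPM in the duplicates (-4.38, SE 0.65, FDR 0.0286). Neurog2 had 14.8, 14.0 and 5.73 CPM against 1.06 and 0.924 CPM (-3.53, SE 0.68, FDR 0.0479). Clone #7 had the lowest control value of both of these bHLH factors and still lay above both duplicates. Nhlh1 and Nhlh2, bHLH factors of young neurons, fell too (-3.95 and -4.02 on the log2 scale). The Notch ligand Dll1 had 29.4, 27.3 and 9.19 CPM in the controls and 4.72 and 3.77 CPM in the duplicates, and was not DE (FDR 0.116) unless clone #7 was left out.

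Of 40 tested neuron genes 18 fell and none passed the test upwards (25 fell and 7 rose without clone #7, 14 fell without #1, 11 without #4), with a median of -1.20. Tubb3, a neuronal tubulin, had 120, 131 and 65.8 CPM in the controls and 20.5 and 14.1 CPM in the duplicates (-2.63, SE 0.44, FDR 0.0358). Dcx, the microtubule protein doublecortin of migrating neurons, had 35.4, 28.8 and 27.4 CPM against 2.17 and 3.21 CPM (-3.46, SE 0.29, FDR 0.0121). The duplicates lay below every control for both. Scg3, a secretory granule protein, Elavl4, a neuronal RNA-binding protein, and Celf3, a splicing regulator, fell further (-4.09, -3.53 and -3.39 on the log2 scale). Not every gene of the list was lower: Stmn2, a tubulin-binding protein of growing axons, had 13.4 to 18.3 CPM in the controls and 16.5 and 13.1 CPM in the duplicates (-0.16, SE 0.27, FDR 0.767). Scaled over all stages, Stmn2 had 299 to 335 CPM in control mESCs and 221 and 211 CPM in Apex1 mESCs. Its level in EBs + RA is thus no measure of neurons alone. Isl1, a LIM homeobox factor of motor and sensory neurons, had 1.94 to 4.56 CPM in the controls and 10.4 and 6.84 CPM in the duplicates, and was not DE (FDR 0.173). Summed over the list, the controls held 604, 621 and 416 CPM and the duplicates 196 and 184 CPM. The pluripotency genes moved in the opposite direction in the same libraries, and their part in these falls was not tested.

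Axon guidance genes, the ligands and receptors that steer growing axons, contained 10 falls and 1 rise among 38 tested members (21 falls and 5 rises without clone #7, 3 falls without #1, 4 without #4), with a median of -0.48. The rise was that of the netrin receptor Unc5b (1.10, named because its value was seen). Robo3, a receptor of commissural axons, had 24.4, 39.8 and 9.87 CPM in the controls and 1.90 and 1.26 CPM in the duplicates (-3.99, SE 0.86, FDR 0.0609). Unc5a, a netrin receptor, had 61.9, 74.7 and 28.1 CPM against 4.67 and 4.43 CPM (-3.59, SE 0.62, FDR 0.0381). Epha3, an ephrin receptor, fell by 2.03 (SE 0.37, FDR 0.0427). The calls of Robo3 and Unc5a were lost without clone #1 and that of Epha3 without clone #4.

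Genes that pattern the neural tube differed by region. Of 22 tested genes of hindbrain and spinal progenitor domains 4 fell and 2 rose (12 and 2 without clone #7, 3 and 1 without #1, 4 and 2 without #4), with a median of -1.06. Dbx1, a homeobox factor of the intermediate neural tube, had 78.7, 91.1 and 17.2 CPM in the controls and 3.05 and 0.887 CPM in the duplicates (-5.06, SE 1.09, FDR 0.061). Pax3, a factor of the dorsal neural tube and neural crest, had 21.9, 17.2 and 7.14 CPM against 1.06 and 1.33 CPM (-3.66, SE 0.73, FDR 0.0512). Prdm12 and Msx3, further factors of neural tube domains, fell likewise (-3.63 and -3.59 on the log2 scale). The rises were those of Nkx2-9, with 0.240 to 0.743 CPM in the controls and 7.07 and 3.84 CPM in the duplicates, and of Sp9, with at most 0.160 CPM and 1.39 and 0.850 CPM. Both are named because their values were seen. At the midbrain-hindbrain boundary 3 of 14 tested genes fell, namely Wnt1, Pax2 and Pax8 (5 fell and 6 rose without clone #7, 2 fell without #1 or #4), and the median was -0.02. Pax2 had 10.1, 10.9 and 6.93 CPM in the controls and 1.99 and 1.63 CPM in the duplicates (-2.37, SE 0.42, FDR 0.0399, lost without clone #4). Wnt1, a ligand made at the boundary and in the dorsal midline, had 18.7, 11.7 and 4.84 CPM against 0.139 and 0.702 CPM (-4.68, SE 0.92, FDR 0.0495). The boundary factors En1 and En2 had 0.406 to 2.68 CPM over all libraries and were not DE. Of 16 tested forebrain and eye field genes 3 fell, Lhx2 (-1.61), Emx2 (-1.45) and Lhx5 (-2.73, named because its value was seen), but none without clone #4 (4 fell and 4 rose without clone #7), and the median was 0.20. Six3, a defining gene of that list, had at most 0.0354 CPM in any library, and the list summed to 36.4 to 46.5 CPM in the controls and 25.5 and 20.4 CPM in the duplicates.

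The Hox genes, which lie in 4 clusters and are numbered by paralogue group from the 3′ to the 5′ end of a cluster, split by paralogue number. Of the 35 tested genes reported here 14 rose and 11 fell (14 and 19 without clone #7, 7 and 3 without #1, 7 and 5 without #4). Of paralogues 1 to 5, which mark the hindbrain and neck, 7 of 14 fell and none passed the test upwards, with a median of -1.45. In paralogues 6 to 8, 3 of 8 fell and 2 rose, with a median of -0.93. Among paralogues 9 to 13, which mark the trunk end and tail, 12 of 13 rose and 1 fell, with a median of 2.38. Without clone #7, 13 fell and 0 rose in the first group, 5 fell and 2 rose in the second, and 1 fell and 12 rose in the third. Hoxa9, Hoxa10, Hoxa11, Hoxa13, Hoxc10, Hoxd10, Hoxd11 and Hoxd13 had at most 1.24 CPM in any control and passed the filter on low counts because the clone expressed them, so their number in that group is no support for a direction.

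Hoxa9 had 0.701, 0.400 and 0.99 CPM in the controls and 20.6 and 22.4 CPM in the Apex1 duplicates (4.95, SE 0.41, FDR 0.0121). Hoxa10 had 0.360 to 0.460 CPM against 13.5 and 10.0 CPM (4.76, SE 0.34, FDR 0.0121). Hoxb13 had 7.60, 11.3 and 17.4 CPM against 68.5 and 57.5 CPM (2.38, SE 0.37, FDR 0.032). Hoxa9 and Hoxa10 thus rose from under 1 CPM, and Hoxb13 from a higher level. Hoxc5 had 152, 164 and 132 CPM in the controls and 21.5 and 27.5 CPM in the duplicates (-2.57, SE 0.22, FDR 0.0121). Hoxc4 (-2.01, SE 0.20, FDR 0.0137), Hoxb6 (-2.41, SE 0.51, FDR 0.0582) and Hoxd4 (-2.60, SE 0.69, FDR 0.0959) also fell. Hoxd4 was no longer DE without clone #1, clone #4 or duplicate 1. Hoxb9 (165, 144 and 84.8 CPM against 49.5 and 47.5 CPM) was the posterior gene that fell. At the anterior end Hoxb1, an early RA target, had 43.5 to 61.2 CPM in the controls and 54.1 and 67.8 CPM in the duplicates and was not DE. Hoxa2, which the study used as a neural crest marker, had 60.2, 66.1 and 39.8 CPM in the controls and 26.6 and 26.3 CPM in the duplicates, and missed the limit (-1.06, SE 0.31, FDR 0.121) except without clone #7. Hox genes other than Hoxa2, Hoxb1, Hoxb4, Hoxa9, Hoxc5 and Hoxd4 are named because their values were seen.

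**Figure D2:**
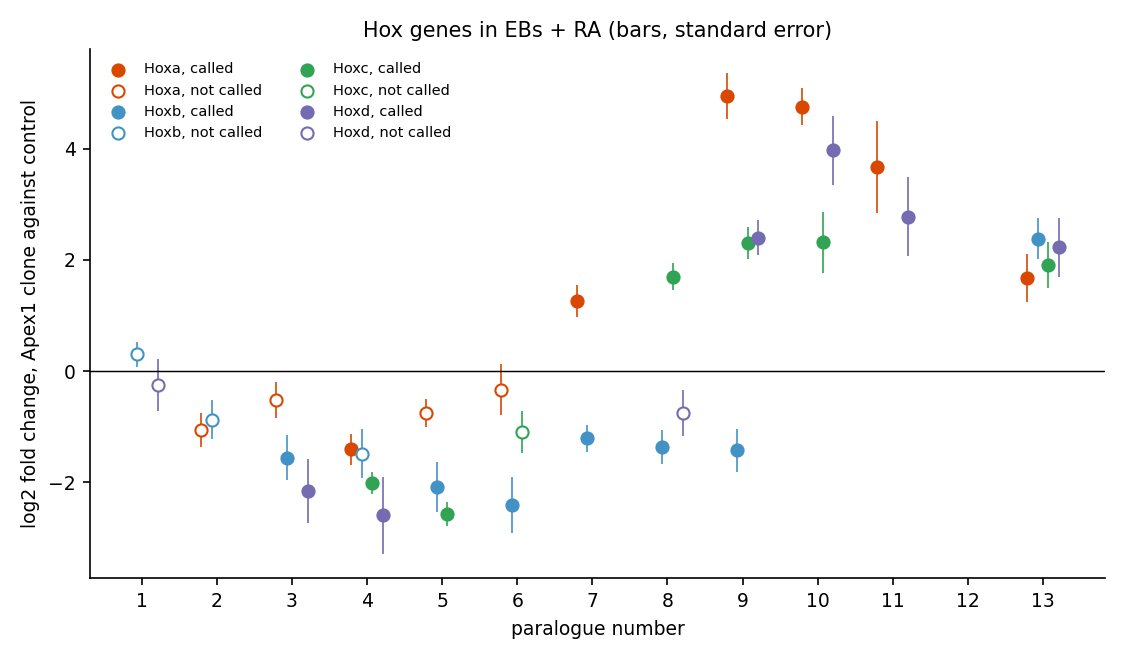
Log2 fold change of the Apex1 clone against the control clones in EBs + RA for 35 tested Hox genes, by paralogue number, with bars for the standard error. Colours mark the clusters and filled symbols the DE genes. The filled symbols of paralogues 3 to 8 lie mostly below 0, and those of 12 of 13 genes of paralogues 9 to 13 lie above it, up to 4.95 for Hoxa9.

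Neural crest genes fell more often than they rose. Of 45 tested genes of the neural plate border and neural crest 10 fell and 4 rose (24 and 9 without clone #7, 6 and 2 without #1, 4 and 1 without #4), with a median of -0.57. Tcfap2b, which encodes the crest factor AP-2 beta, had 28.2, 22.0 and 8.70 CPM in the controls and 1.11 and 1.74 CPM in the duplicates (-3.74, SE 0.75, FDR 0.0518). Crabp1, an RA-binding protein found in migrating crest, had 226, 256 and 175 CPM against 43.3 and 32.8 CPM (-2.53, SE 0.28, FDR 0.0183). Cdh6, a cadherin of early crest, had 13.4 to 17.7 CPM against 3.28 and 3.69 CPM (SE 0.32, FDR 0.0294). The study named Pax3, Tcfap2b, Neurog1 and Crabp1 as crest genes that fell in Neil-mutant teratomas and again in EBs of Neil1 and Neil2 mutants. Those EBs share the control libraries used here, so that the direction of these genes is not independent evidence. Other crest genes did not fall. Tcfap2a, the paralogue of Tcfap2b at the plate border, had 7.24 to 8.27 CPM in the controls and 5.96 and 4.51 CPM in the duplicates (FDR 0.299). Foxd3 had 0.385 to 1.41 CPM and 2.50 and 1.92 CPM, and Sox10 had 1.09 to 4.35 CPM and 3.70 and 4.03 CPM. Neither of these crest specifiers was DE, and Sox10 overlapped between the groups. The rises were those of Msx2 (0.72), Erbb3 (1.55), Kit (1.07) and Tcfap2e (2.27), named because their values were seen. In the cranial placodes, the thickenings that form sense organs and ganglia, 2 of 19 tested genes rose, among them Six4 (0.68, SE 0.16, FDR 0.0768, lost without clone #1 or #4). Pax8 and Neurog1 fell (6 fell and 5 rose without clone #7, 1 fell and 1 rose without #1), and the defining markers Eya1 and Eya2 were not DE.

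A few genes of the primitive streak and early mesoderm were higher in the Apex1 clone. Of 19 tested members 4 rose and none fell (12 rose and 1 fell without clone #7, 3 rose without #1, 2 without #4), with a median of 1.12, and 13 had a positive and 6 a negative log2 fold change. Eomes, the T-box factor of the streak that the study used as a mesoderm marker, had 2.84, 3.76 and 3.93 CPM in the controls and 18.6 and 16.7 CPM in the duplicates (2.33, SE 0.29, FDR 0.0231). The study reported by qPCR that the germ layer markers it tested, Eomes among them, were reduced in this line, and its text names no stage. In EBs without RA the fitted log2 difference of Eomes was -0.72 here. Cdx1, a caudal homeobox gene that answers to Wnt and RA, had 6.34, 7.08 and 9.16 CPM against 83.0 and 61.3 CPM (3.25, SE 0.23, FDR 0.0121). The others were Mesp2 (2.00) and Tcf15 (1.72), named because their values were seen. T, the streak marker Brachyury, had 0.141 to 0.456 CPM in the controls and 1.16 and 1.22 CPM in the duplicates and was not DE (FDR 0.141), and neither was Mixl1 (FDR 0.2).

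Derivatives of mesoderm showed no common direction. Cardiac and striated muscle genes had 3 rises and 2 falls among 17 tested (5 and 4 without clone #7, 1 and 1 without #1 or #4). Actc1, the cardiac actin, had 5.75, 5.64 and 10.4 CPM in the controls and 0.185 and 0.517 CPM in the duplicates (-4.27, SE 0.61, FDR 0.0263), whereas Myl7, an atrial myosin light chain, rose from 2.08 to 4.10 CPM to 16.0 and 12.1 CPM (2.31, SE 0.41, FDR 0.0399). The low genes Nkx2-5 (2.08, lost without clone #1, clone #4 or duplicate 1), Ttn (1.79) and Tbx5 (-2.08) made up the rest, and Ttn and Tbx5 are named because their values were seen. Tnnt2 and Myh6, contractile genes of cardiomyocytes, had 0.596 to 1.81 CPM over all libraries and were not DE. Of 20 tested endothelial genes 3 rose, Pecam1, Tek and Plvap (7 rose and 4 fell without clone #7, and Tek was lost without clone #4). Pecam1, an adhesion molecule that mESCs also carry, had 4.77, 7.08 and 5.41 CPM in the controls and 26.6 and 26.3 CPM in the duplicates (2.21, SE 0.28, FDR 0.0231). The endothelial cadherin Cdh5 had 8.42 to 10.2 CPM and 3.74 and 7.09 CPM, lower in the clone but not DE (FDR 0.214). Blood was nearly absent. Hba-x, Hbb-y, Ptprc and Tyrobp had at most 0.245 CPM in any library and were not tested. Of 8 tested erythroid genes 1 rose, Slc4a1, with at most 0.0400 CPM in the controls and 0.740 and 0.443 CPM in the duplicates (not DE without clone #4, named because its value was seen). Of 8 tested macrophage genes 1 rose (4 rose and 1 fell without clone #7). It was Laptm5, a lysosomal membrane protein of blood cells, with 1.28 to 2.58 CPM in the controls and 29.4 and 24.8 CPM in the duplicates (SE 0.36, FDR 0.0132). Laptm5 was also expressed in mESCs, with 55.9 to 71.8 CPM in the controls and 119 CPM in each Apex1 duplicate, scaled over all stages. Csf1r, the receptor that defines macrophages, had 3.24 to 4.31 CPM and 1.11 and 2.18 CPM and was not DE (FDR 0.153).

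Endoderm was not called in either direction by edgeR. Of 23 tested genes of visceral and definitive endoderm 0 were DE, with 1 in each direction at an unadjusted p below 0.05 and 1 in each direction by DESeq2 (3 rose and 1 fell without clone #7), and the median was -0.38. Gata6, the study's endoderm marker, had 52.1, 46.2 and 112 CPM in the controls and 70.3 and 66.4 CPM in the duplicates (-0.03, SE 0.47, FDR 0.981). It was among the markers that the study reported as reduced in this line by qPCR. In EBs without RA its fitted log2 difference was -1.73 here. Sox17 and Foxa2, factors of definitive endoderm, had 11.3 to 15.2 and 14.0 to 18.9 CPM in the controls and 10.3 to 15.3 and 11.4 to 18.6 CPM in the duplicates. Clone #7 held the most Gata6, Afp and Foxa2, and its summed level of the list (1740 CPM) lay above that of clones #1 and #4 (841 and 635 CPM) and of the duplicates (1150 and 1010 CPM). Among parietal endoderm and basement membrane genes 1 of 20 rose and 1 fell (4 and 2 without clone #7). Lama5, a laminin chain, had 161 to 191 CPM in the controls and 309 and 335 CPM in the duplicates (0.88, SE 0.16, FDR 0.0439), and Plat, tissue plasminogen activator, fell from 173 to 223 CPM to 107 and 109 CPM (-0.84, SE 0.20, FDR 0.0775). Neither call held without clone #1 or #4. The abundant matrix genes Col4a1, Sparc and Lama1 were not DE, and Col4a1 had 757, 428 and 1640 CPM in the controls and 522 and 656 CPM in the duplicates, with clone #7 the highest.

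Trophoblast genes contained the largest fall among well-expressed genes. Of 21 tested members 4 fell and 1, Eomes, rose (9 and 7 without clone #7, 4 and 2 without #1), with a median of -0.52. Prl7d1, a prolactin-family hormone of placental giant cells, had 6.87, 9.96 and 3.78 CPM in the controls and 0.0462 and 0.0739 CPM in the Apex1 duplicates (-6.70, SE 0.93, FDR 0.0249). The duplicates held 3 counts in all, and the mean level of the controls was 112 times theirs, with an exact Poisson 95% interval of 38.2 to 541 that covers counting error only. Tpbpa, a marker of the spongiotrophoblast, had 4.49, 10.0 and 3.29 CPM against 0.185 and 0.369 CPM (-4.34, SE 0.88, FDR 0.0526). Plac1, a placental membrane protein, fell by 1.98 (SE 0.28, FDR 0.0254), and Prl3d1 by 3.53, named because its value was seen. Elf5 and Krt7 were lower in both duplicates than in any control but not DE (FDR 0.176 and 0.104). Among mesenchyme and matrix genes 3 of 25 fell (7 fell and 4 rose without clone #7, 2 fell without #1). These were Acta2, the smooth muscle actin (88.4, 59.1 and 125 CPM against 20.5 and 18.8 CPM, -2.20, SE 0.43, FDR 0.0482, lost without clone #1), Thbs1, a thrombospondin (-1.74, SE 0.34, FDR 0.0494), and Tnc, the matrix protein tenascin C (-1.55, SE 0.31, FDR 0.0518). The collagens Col1a1 and Col3a1 were not DE. Of 25 epithelial genes 3 rose, Grhl3 (1.74), St14 (1.36) and Spint1 (0.82), which encode a surface ectoderm factor, a membrane protease and its inhibitor (7 rose and 2 fell without clone #7, 2 rose without #1 and 1 without #4). The adhesion genes Cdh1 and Epcam were not DE.

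**Figure D3:**
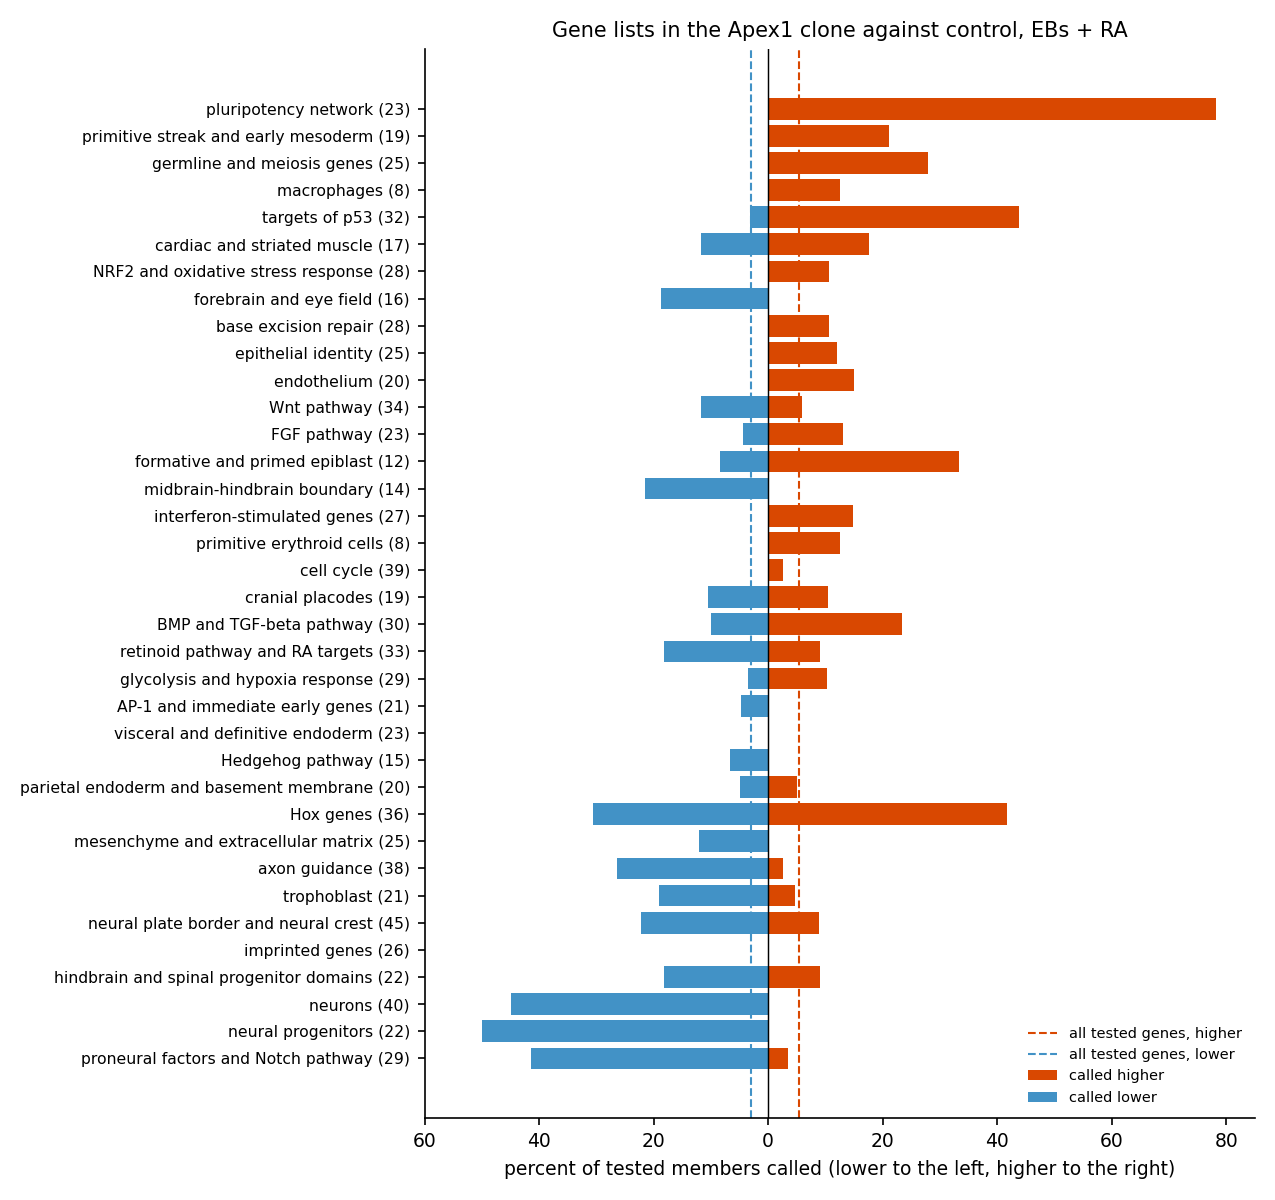
Percent of the tested members of each gene list that were DE in the Apex1 clone against control in EBs + RA, higher to the right and lower to the left, with the number tested in parentheses. Lists are ordered by their median log2 fold change, and the dashed lines mark the 5.32% and 3.02% of all tested genes. The pluripotency network (18 of 23 higher) and the targets of p53 (14 of 32 higher) reach furthest to the right and neural progenitors (11 of 22 lower) furthest to the left.

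Direct targets of RA were found at control levels in the Apex1 clone or somewhat lower. Cyp26a1, the RA-degrading enzyme and a direct RA target, had 635, 562 and 877 CPM in the controls and 591 and 602 CPM in the duplicates (-0.20, SE 0.26, FDR 0.703). Stra6, the retinol transporter, had 45.1 to 51.2 CPM and 47.3 and 41.9 CPM, and Dhrs3, a retinaldehyde reductase, had 131 to 222 CPM and 202 and 190 CPM. Rarb, an RA receptor and RA target, had 139, 137 and 104 CPM in the controls and 78.3 and 81.3 CPM in the duplicates, lower but not DE (-0.65, SE 0.22, FDR 0.162) unless clone #7 was left out. Over the 33 tested members of the retinoid list 3 rose and 6 fell (6 and 12 without clone #7, 3 and 4 without #1, 2 and 3 without #4), with a median of -0.12. Besides Crabp1, Aldh1a1, an RA-making enzyme, fell from 8.12 to 9.15 CPM to 1.76 and 1.92 CPM (-2.20, SE 0.34, FDR 0.0311). The rises included those of Cdx1 and Rarg (1.55, named because its value was seen).

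Signalling genes changed pathway by pathway in small numbers. In the BMP and TGF-beta pathway 7 of 30 tested members rose and 3 fell (7 and 7 without clone #7, 4 and 1 without #1, 4 and 0 without #4), with a median of -0.11. The 4 largest rises were the Nodal-related genes Lefty1, Lefty2, Nodal and Gdf3 (3.09, SE 0.33), which also stand in the pluripotency and epiblast lists. Bmp4 and the BMP target Id1 were not DE. In the FGF pathway 3 of 23 rose and 1 fell (7 and 5 without clone #7, 3 and 0 without #1 or #4). Fgf4, the FGF ligand of pluripotent cells, had 1.12 to 1.96 CPM in the controls and 14.8 and 8.72 CPM in the duplicates (3.04, SE 0.39, FDR 0.0233), and Etv5, an ETS factor downstream of FGF, rose by 1.78 (SE 0.17, FDR 0.0132). The third was Il17rd (1.08, named because its value was seen). Fgfr3, a receptor of neural progenitors, had 19.6 to 29.1 CPM against 11.2 and 8.76 CPM (-1.29), a call lost without clone #1 or #4, while Dusp6, a feedback target of FGF, had 92.5 to 108 CPM and 110 and 92.3 CPM. In the Wnt pathway 2 of 34 rose and 4 fell (8 and 9 without clone #7, 2 and 1 without #1, 0 and 2 without #4). Lgr5, an R-spondin receptor, had 42.1, 36.0 and 12.9 CPM in the controls and 3.33 and 2.88 CPM in the duplicates (-3.29, SE 0.73, FDR 0.0643), but was DE only with clones #1 and #4 both in the fit. Notum, a secreted Wnt inhibitor, rose by 1.76 (SE 0.44, FDR 0.0832, lost without clone #4 or duplicate 1), and the Wnt target Axin2 had 25.4 to 52.1 CPM and 27.0 and 27.2 CPM. In the Hedgehog pathway 1 of 15 fell, the co-receptor Boc, with 73.3, 69.3 and 41.2 CPM in the controls and 16.2 and 15.8 CPM in the duplicates (-1.93, SE 0.37, FDR 0.0473). Without clone #7, 9 of these 15 fell and 1 rose. The targets Ptch1 and Gli1 had control values of 43.3 to 82.9 and 19.5 to 59.7 CPM that spanned those of the duplicates.

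Targets of p53, the transcription factor that answers DNA damage, rose more often than they fell. Of 32 tested members 14 rose and 1 fell (22 and 2 without clone #7, 9 and 0 without #1, 6 and 0 without #4), with a median of 0.67, and 27 had a positive log2 fold change. Cdkn1a, the cell cycle inhibitor p21, had 121, 108 and 130 CPM in the controls and 247 and 199 CPM in the Apex1 duplicates, 1.86-fold higher (0.89, SE 0.16, FDR 0.0422). Mdm2, the ubiquitin ligase that degrades p53, had 166, 158 and 194 CPM against 316 and 296 CPM (0.83, SE 0.17, FDR 0.0557). Ccng1, a cyclin induced by p53, had 254 to 319 CPM against 516 and 574 CPM (0.90, SE 0.18, FDR 0.0544). The changes were modest, and the duplicates lay above every control. Larger rises were those of the death genes Pmaip1 (NOXA, 1.74, SE 0.23) and Perp (1.54, SE 0.18) and of Trp53inp1, a p53-induced stress protein (1.56, SE 0.19). The fall was that of Plk3 (-0.90, named because its value was seen). The calls of Cdkn1a, Mdm2, Ccng1 and Eda2r were lost without clone #4, those of Mdm2 and Eda2r also without clone #1, and that of Eda2r without duplicate 2. Summed over the list the controls held 2810 to 2920 CPM and the duplicates 4890 and 4570 CPM. Pluripotency genes rose in the same libraries, from 607 to 819 CPM summed in the controls to 2910 and 3640 CPM, and their part in the p53 values was not tested.

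Other genes of DNA repair and stress moved little. Among 28 BER genes 3 rose and none fell (4 and 4 without clone #7, 2 and 0 without #1 or #4), with a median of 0.05. Besides Apex1 these were Ung, the uracil-DNA glycosylase (40.3 to 48.3 CPM against 95.9 and 77.2 CPM, 0.99, SE 0.18, FDR 0.0404), and Tdp1, an end-processing enzyme on chromosome 12 (0.62, SE 0.15, FDR 0.0831, lost without clone #1 or #4). Polb and Xrcc1, which act after APEX1 in the pathway, had 25.6 to 29.9 CPM and 80.1 to 94.5 CPM in the controls and 23.8 and 23.9 CPM and 122 and 120 CPM in the duplicates, and were not DE. Of 28 genes of the NRF2 and oxidative stress response 3 rose, Fth1 (0.79), Gpx4 (0.78) and Gsta4 (0.75), and none fell (11 rose without clone #7, 0 without #1 or #4). Nqo1, the standard NRF2 target, had 17.6 to 38.4 CPM in the controls and 72.9 and 53.1 CPM in the duplicates and was not DE (FDR 0.123) unless clone #7 was left out. AP-1 factors and immediate early genes, which answer growth signals and stress and include targets of the redox function of APEX1, had 1 fall among 21 tested, Fosb (-2.0, named because its value was seen, and lost without clone #1 or #4). Fos had 19.8 to 37.2 CPM and 18.1 and 18 CPM, and Jun 81.3 to 109 CPM and 95.9 and 82.9 CPM. Among 39 cell cycle genes Cdkn1a was the only call (6 rose and 8 fell without clone #7, 0 without #4). The proliferation marker Mki67 had 346, 348 and 404 CPM in the controls and 270 and 449 CPM in the duplicates.

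Whether these differences depended on RA was tested against the EBs of the same clones, which were split from the same cultures on day 4 and kept without RA. The interaction, the log2 difference of the Apex1 clone from control in EBs + RA minus that in EBs, passed an FDR of 0.1 for 662 of 17317 tested genes (3.82%), 468 positive (2.7%) and 194 negative (1.12%). Same-numbered control clones deviated together at both stages, and with the clone as replicate block 1520 genes passed. Without control clones #1, #4 and #7 the counts were 77, 204 and 4010. In the EBs alone 2796 of 16848 genes were DE (16.6%), 7.49% higher and 9.1% lower in the Apex1 clone. The comparisons at each stage use different libraries of the same clones.

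The higher pluripotency genes in EBs + RA were present to a smaller degree in EBs. Of 24 tested genes of the network 13 had a positive interaction and none a negative one, with a median of 1.69, against 0.01 over all genes. Pou5f1 differed from control by 0.90 in EBs and 3.16 in EBs + RA (interaction 2.24, SE 0.30, FDR 0.013), and Nanog by 0.49 and 3.17 (2.66, SE 0.43, FDR 0.0265). Neural genes differed more widely between the stages. Pax6 was higher than control in EBs (2.99, FDR 0.0013) and lower in EBs + RA (-3.47), with an interaction of -6.50 (SE 0.86, FDR 0.0179). Its levels in EBs were low, with 0.701 to 1.12 CPM in the controls and 6.63 and 7.94 CPM in the Apex1 duplicates. Control mESCs had 7.53 to 8.13 CPM, and the Apex1 duplicates had 8.57 and 9.45 CPM in EBs + RA, scaled over all stages. Miat went from 1.74 to -5.08 (interaction -6.83, SE 0.75, FDR 0.01), and Crabp1 from 0.18 to -2.53 (-2.74, SE 0.28, FDR 0.0046). Of 40 neuron genes 12 had a negative and 2 a positive interaction. Mesoderm and posterior genes showed the reverse pattern. Eomes was at -0.72 in EBs and 2.33 in EBs + RA (3.03, SE 0.31, FDR 0.0046), and Hoxa9 at -1.93 and 4.95 (6.85, SE 0.83, FDR 0.0106). Of 22 streak and mesoderm genes 11 and of 38 Hox genes 10 had a positive interaction and none a negative one. In EBs 14 of 22 streak genes and 18 of 38 Hox genes had been lower in the Apex1 clone. Cyp26a1 was lower than control by 2.24 on the log2 scale in EBs (FDR 0.000442) and did not differ by the test in EBs + RA (interaction 2.02, SE 0.35, FDR 0.0273). Apex1 itself was as high in EBs (2.34) as in EBs + RA (interaction -0.19, FDR 0.779). Of the targets of p53, 12 of 32 rose in EBs, and 2 had an interaction, Cdkn1a (0.93, SE 0.21, FDR 0.0632) and Pmaip1 (1.12, SE 0.25, FDR 0.0631). Of the 51 named genes that passed the interaction limit, 16 also passed it without clone #1, 29 without #4 and 49 without #7.

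**Figure D4:**
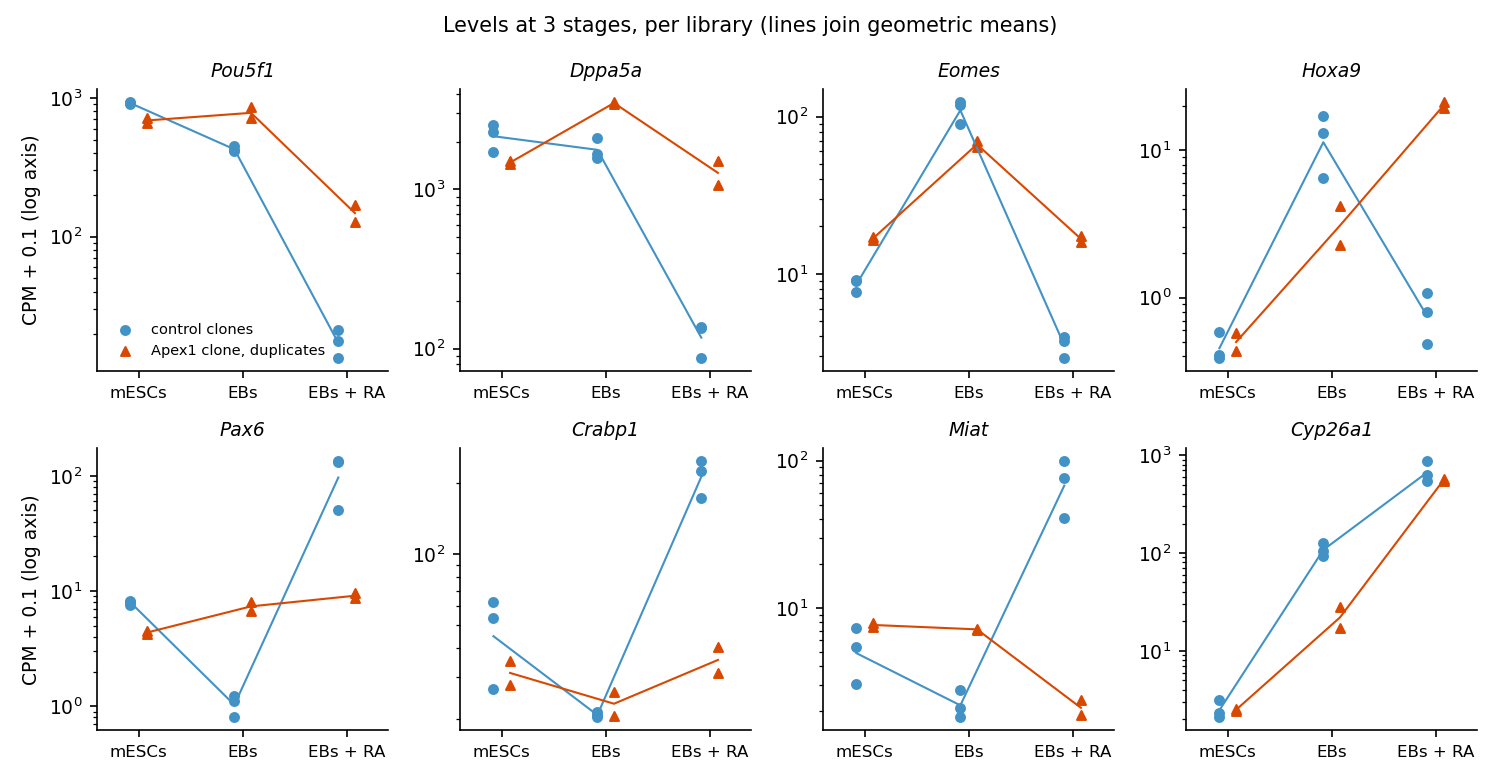
Levels of 8 genes as CPM + 0.1 on a log axis in mESCs, EBs and EBs + RA, with 1 symbol per library, control clones in blue, Apex1 duplicates in orange and lines through the geometric means. Pou5f1 fell from 411 to 446 CPM in control EBs to 13.2 to 21.2 CPM in control EBs + RA. In the Apex1 clone it fell from 710 and 856 CPM to 170 and 128 CPM. Pax6 reached 50.6 to 134 CPM in the controls and 8.57 and 9.45 CPM in the clone, and Cyp26a1 reached similar levels (544 to 869 and 550 and 573 CPM). Values are scaled over all stages and differ slightly from those scaled within EBs + RA.

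The Apex1 clone was also compared directly with the 3 Neil1 and 3 Neil2 mutant clones in EBs + RA, which involves no control library. NEIL1 and NEIL2 are DNA glycosylases that remove oxidised bases upstream of APEX1. Of 17251 tested genes 1398 were DE (8.1%), 928 higher (5.38%) and 470 lower (2.72%) in the Apex1 clone than in the mean of the Neil1 and Neil2 mutants. DESeq2 split its 2289 calls into 1127 and 1162. Without Neil2 clone #14 the count was 579 and without Neil1 clone #11 it was 2503. Apex1 was higher by 3.35 (SE 0.27, FDR 0.00156). The calls in genes of axon guidance and patterning were mostly higher. Of 37 axon guidance genes 19 were higher and none lower, with a median of 0.92 (-0.02 over all genes), of 37 Hox genes 12 were higher and none lower, and of 45 neural crest genes 11 were higher and 1 lower. Hoxa9 was higher by 3.71 (FDR 0.00172), with 1.06 to 2.33 CPM in the Neil1 and Neil2 clones and 19.2 and 21.3 CPM in the Apex1 duplicates. Tcfap2b was higher by 4.19 (FDR 0.0213), Crabp1 by 2.34 (FDR 0.043), Prdm12 by 6.20 (FDR 0.028) and Dbx1 by 4.35 (FDR 0.0208). In the Neil1 and Neil2 clones Tcfap2b, Prdm12 and Dbx1 had at most 0.157, 0.0319 and 0.224 CPM. The Apex1 duplicates had 1.03 and 1.65, 0.646 and 0.527, and 2.84 and 0.844 CPM. Tcfap2b, Prdm12 and Dbx1 passed the filter on low counts because the Apex1 clone expressed them, so their direction carries no weight. Crabp1 had 2.91 to 19.5 CPM in the Neil1 and Neil2 clones, 31.2 and 40.3 CPM in the Apex1 duplicates and 173 to 248 CPM in the controls, so the Apex1 clone lay between the other mutants and the controls. Pax6 did not differ by the test (0.57, FDR 0.383). Of the 24 pluripotency genes 0 were DE by edgeR, with 2 higher and 1 lower at an unadjusted p below 0.05 and 1 lower by DESeq2, and the median was 0.49. The Neil clones ranged widely for Pou5f1, from 31.3 to 129 CPM, against 170 and 128 CPM in the Apex1 clone (log2 difference 0.99, FDR 0.351). Of 26 collagen and mesenchyme genes 9 were higher, with Col3a1 at 5.03 (FDR 0.00194), and 1 was lower, and of 25 epithelial genes 8 were lower and none higher. Ccnd1, the G1 cyclin D1, was higher by 3.03 (FDR 0.00156), whereas it did not differ from control by the test (-0.02, FDR 0.988).

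Because the mutant was a single clone, the log2 differences were also summarised along the genome, over genes whose mean level reached 5 CPM. On most chromosomes the median of the Apex1 duplicates lay between -0.15 and 0.06, and that of each control clone against the others lay between -0.06 and 0.08 on all of them. Chromosome 12 had medians of 0.24 and 0.28 in the duplicates and of -0.02 to 0.04 in the controls. Of its 412 genes 60 were DE upwards (14.6%) and 11 downwards (2.67%). Chromosome 13 had medians of -0.22 and -0.13, with 39 of 396 genes DE downwards (9.85%), and chromosome X of -0.28 and -0.15, with 25 of 397 (6.3%). Of 136 windows of 20 Mb 4 had medians beyond 0.3 in both duplicates, 3 of them adjacent, from 60 to 120 Mb of chromosome 12, and 1 from 40 to 60 Mb of chromosome 13. The part of chromosome 12 was chosen after seeing these values. Its medians were 0.30 and 0.33 in EBs + RA, 0.38 and 0.44 in EBs and 0.26 and 0.20 in mESCs, and between -0.06 and 0.07 in the controls over the stages. Of 391 tested genes in it 69 rose (17.6%) and 2 fell. Esrrb, Six4, Tdp1, Fos and Meg3 lie there, with log2 fold changes of 3.66, 0.68, 0.62, -0.56 and -1.38 in EBs + RA. The part that the shift of the region plays in these values was not tested. On chromosome 13 the window stood at -0.51 and -0.47 in EBs + RA but at -0.17 and -0.11 in EBs and -0.08 and -0.07 in mESCs.

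**Figure D5:**
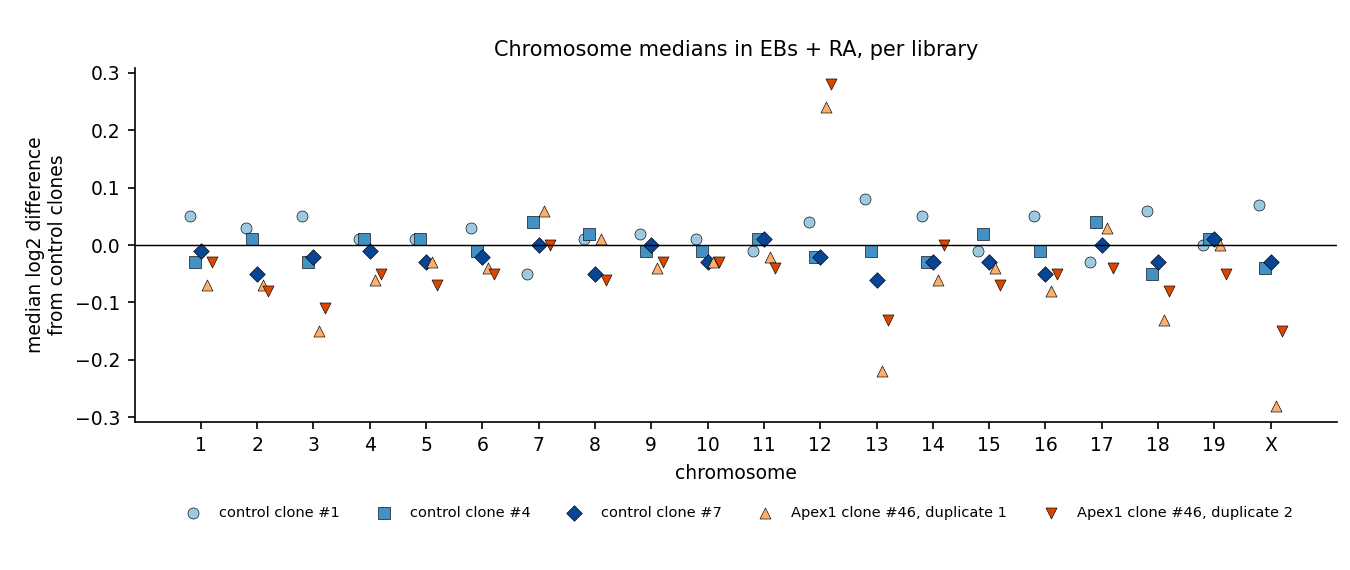
Median log2 difference from the control clones per chromosome in EBs + RA, over genes whose mean reached 5 CPM, with 1 symbol per library. A control clone is set against the other controls. The Apex1 duplicates lie at 0.24 and 0.28 on chromosome 12, and below the controls on chromosomes 13 and X.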

How the data were processed

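The series holds polyA RNA-seq of mutant and control clones at 3 stages, of which EBs + RA are described here. The authors deposited raw gene counts, 1 table per library. Per the submitters' processing notes and the study's methods, reads were aligned to NCBIM37 with TopHat2 2.0.9 and Bowtie2 2.1.0 and counted with HTSeq 0.5.4. The strand setting of the counting is not given in the sources used here. Each table listed 37991 gene identifiers, of which 37205 had a gene symbol. Rows of reads not assigned to a gene held 21.8 to 25.2% of a library's total in EBs + RA and stayed out of library sizes and tests.

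Counts of the Apex1 technical duplicates were summed and tested against the control clones by the quasi-likelihood test of edgeR 4.0.16 (R 4.3.3, robust fit, filterByExpr, TMM normalization), with FDR values by Benjamini-Hochberg over all tested genes. The fit has 2 residual degrees of freedom, and the clone is assumed to vary like the controls. Totals of 21523742 to 29045090 counts limit the precision for genes with few counts. The difference between EBs + RA and EBs (an interaction term) and the difference from the Neil1 and Neil2 mutants were tested likewise. The clones pair the stages because the EBs of a clone were divided on day 4, and deviations of same-numbered control libraries correlated with r = 0.44, 0.347 and 0.399. Other settings were DESeq2 1.42.0, RLE size factors, other filters and limits, separate duplicates, a replicate block, a fit of all genotypes, and leaving out each library. DESeq2 with separate duplicates was added after seeing the data. The edgeR fits were tested on simulated counts with known changes, and the other steps were not tested in this way. For the comparison with control, 49 of 100 simulated log2 changes of size 1 and 98 of 100 of size 2 were recovered. Beside these true calls stood 46 false ones among 15021 genes, a larger share of the calls than the FDR limit allows. For the interaction 24 of 100 changes of size 1 and 82 of 100 of size 2 were recovered, beside 18 false calls. Against the Neil1 and Neil2 mutants 28 of 100 and 89 of 100 were recovered, beside 28 false calls. The false share exceeded the limit in these fits too. Genes that were not DE may thus still differ, and more of the DE genes may be false than the limit implies.

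Named genes were Apex1, the study's marker genes, the defining members and up to 3 further DE members of each of 37 lists whose mean log2 CPM reached 2, and the 8 largest rises and falls in which both duplicates lay beyond the controls. Some genes are not reported here, and counts over whole lists include them. Further genes are marked as named because their values were seen. The samples, lists and rules were chosen with earlier results of these data known. Of 981 list entries 974 matched the count tables. Guide positions were found by sequence on chromosome 14 of NCBIM37 alone. The 12 Neil1 and Neil2 libraries of mESCs and of EBs without RA were not used here.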

Additional observations from a re-analysis of the deposited data

Results flagged for a closer look

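For 51 of 180 named genes tested, the difference of the Apex1 clone from control was not the same in EBs + RA and in EBs by the interaction test of edgeR (FDR below 0.1, 3.82% of all tested genes). Most of these genes were named for their difference in EBs + RA, which enters the interaction, so the share carries no weight of its own. Values below are log2 differences, positive where the Apex1 clone stood higher against control in EBs + RA than in EBs. For 16 of the genes the fitted difference was negative in EBs and positive in EBs + RA, for 8 the opposite, and 2 (Prdm12 and Nhlh2) were too low in EBs for a value there.

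Pluripotency, Nodal and germline genes were positive, with Pou5f1 at 2.24, Nanog at 2.66, Zfp42 at 1.51, Esrrb at 2.49, Dppa5a at 2.48, Gdf3 at 2.03, Lefty2 at 3.06, Nodal at 2.39, Fgf4 at 2.1, Etv5 at 1.88, Dppa3 at 2.82, Dazl at 1.74 and Prdm1 at 1.73. So were the streak and cardiac genes Eomes (3.03), T (3.36), Mixl1 (3.46), Cdx1 (3.55), Nkx2-5 (3.06) and Myl7 (2.25). The endoderm and matrix genes Foxa2 (1.73), Sox17 (2.1), Plat (1.28), Lama5 (0.93) and Pdgfrb (2.33) were positive as well. Pecam1 (1.64), listed under endothelium, and Laptm5 (1.92), listed under macrophages, were positive too. Control mESCs had 60.8 to 84.4 CPM of Pecam1 and 55.9 to 71.8 CPM of Laptm5, so neither marks its listed cell type alone. T, Mixl1, Foxa2, Sox17 and Pdgfrb were not DE in EBs + RA.

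Neural genes were mostly negative, with Pax6 at -6.50, Prdm12 at -7.06, Msx3 at -4.59, Nhlh2 at -4.28, Tubb3 at -2.78, Dcx at -2.72, Scg3 at -5.36, Elavl4 at -3.71, Robo3 at -4.79, Crabp1 at -2.74 and Miat at -6.83. Isl1 (2.72) and Unc5c (2.28) were positive.

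The others were positive, namely Hoxa9 (6.85), the epithelial protease St14 (1.14), the RA-degrading enzyme Cyp26a1 (2.02), Bmp4 (2.72), its target Id1 (2.07) and its antagonist Nog (2.42), the p53 targets Cdkn1a (0.93) and Pmaip1 (1.12), the interferon-inducible Ifitm1 (2.14) and Ifitm3 (1.71), Gm7325 (2.98) and Trh (2.78). All 51 also passed with the clone as replicate block and with separate duplicates, 50 by DESeq2, 49 without control clone #7, 29 without #4 and 16 without #1.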

How the results depend on the processing

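The count of DE genes against control (1400) ranged from 449 (without clone #4) to 5435 (without clone #7) when 1 library was left out. It was 568 at an FDR below 0.05, 2332 without the filter on low counts, 3874 by DESeq2 with separate duplicates (chosen after seeing the data), and 4026 by edgeR with separate duplicates. Calls over the gene lists (207 of 817 tested members) numbered 398 with separate duplicates and ranged from 110 to 451 when 1 library was left out. The interaction count (662) was 1165 by DESeq2, 2779 with separate duplicates and 77 to 4010 when 1 control clone was left out. The count against the Neil1 and Neil2 mutants (1398) was 2289 by DESeq2, 4433 with separate duplicates and 579 to 2503 when 1 clone was left out, and the share of higher genes was 66.4%, 49.2% by DESeq2 and 50.7% with separate duplicates. Against control that share was 63.8%, and 51.7% by DESeq2. The median of chromosome X ranged from -0.28 to -0.15 over the duplicates. RLE size factors, the fit of all genotypes, a minimum of 10 counts and a log2 limit of 1 left the count against control between 1124 and 1445. The causes of these shifts were not tested, other than the number of libraries or genes tested that each setting itself changes.

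With the clone as replicate block the interaction count was 1520, and with a replicate block and separate duplicates the count against control was 5602 and the list count 470. The numbers of the Apex1 duplicates name repeat libraries of 1 clone and pair with no control. Under that block the calls of Lefty1 and Scand1 were lost.

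Of 2225 values of named genes under these settings 1983 kept their direction and their side of the limit, 108 lost the call, 134 gained one and 0 changed direction. Of the 103 named genes called, 76 were called without clone #1, 70 without #4, 100 without #7, and 103 by DESeq2 and with separate duplicates. Counts of single lists stayed within 1.5-fold in 249 cases and moved further in 183, and the median of macrophage genes (0.94) was -0.06 without the filter.

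A single mutant clone limits all of these results. The spread comes from 3 control clones, of which clone #7 lay nearest to the Apex1 clone. The counts of calls were higher without it and lower without clone #1 or #4. Differences of this clone and of the genotype cannot be told apart, nor can fewer cells of a kind and less RNA per cell.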

Other observations

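Genes of energy metabolism, interferon response and imprinting had few calls. Of 29 glycolysis and hypoxia genes 3 rose and 1 fell in the Apex1 clone in EBs + RA (5 and 5 without control clone #7, 1 and 0 without #1 or #4). Slc2a3, the glucose transporter GLUT3 of neurons and mESCs, had 322, 252 and 472 CPM in the controls and 727 and 949 CPM in the duplicates (1.30, SE 0.30, FDR 0.0721 by edgeR). The calls of Slc2a3 and of the hexokinase Hk1 (0.83) were lost without clone #1 or #4. Ddit4, an inhibitor of mTOR signalling, rose by 1.34 (SE 0.19, FDR 0.027). Tpi1, a glycolytic enzyme named because its value was seen, fell from 508 to 542 CPM to 281 and 357 CPM. Slc2a1 and Ldha were lower in both duplicates than in any control and not DE (FDR 0.176 and 0.131).

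Of 27 tested interferon-stimulated genes 4 rose, with a median over the list of -0.04 (6 rose without clone #7). Ifitm1 and Ifitm3, membrane proteins that germ cells and early embryos also express, had 24.8 to 31.4 and 33.0 to 44.8 CPM in the controls and 117 to 161 and 83.5 to 110 CPM in the duplicates. Tap1, a peptide transporter of antigen presentation, rose by 1.60 (SE 0.23, FDR 0.027), and Oasl1 is the fourth, named because its value was seen. The standard interferon targets Isg15 and Ifit1 had 2.14 to 5.62 and 0.920 to 3.25 CPM in the controls, 2.77 and 3.19 CPM and 0.878 and 1.18 CPM in the duplicates, and were not DE.

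Some imprinted genes differed widely among the controls. Of 26 tested members 0 were DE by edgeR, with 8 lower and 0 higher at an unadjusted p below 0.05 and 4 lower by DESeq2. Over all 16792 tested genes 3655 had an unadjusted p below 0.05 by edgeR, in either direction. Without clone #1 the fit called 3 higher and 9 lower, and without clone #7 it called 4 lower. Both duplicates lay below all controls for 11 members and above them for 0, against 26.7% (below) and 25.6% (above) of all tested genes. H19, a noncoding RNA expressed from the maternal allele, had 926, 7890 and 10200 CPM in clones #1, #4 and #7 and 1660 and 2140 CPM in the duplicates. Igf2, the growth factor gene beside it that is expressed from the paternal allele, had 3890, 531 and 1750 CPM and 1330 and 1830 CPM. The duplicates lay within the range of the controls for both genes. The 13 listed mitochondrially encoded transcripts are at 0 in every library and were not tested.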
